A study of Rattus norvegicus with 3 samples.

Results

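The insulin-like growth factor (IGF) family was followed in tendon stem/progenitor cells (TSPCs) of rats aged 1, 7 and 56 days. The 10 genes are the ligands *Igf1* and *Igf2*, the receptors *Igf1r* and *Igf2r*, and the binding proteins *Igfbp2* to *Igfbp7*. They were chosen by name, as every probe set (a group of short probes for 1 transcript) that the array's gene table assigns to a single gene of the family. This gave 23 probe sets of 31042, and 10 genes of 14217 with a name. There were 3 Affymetrix Rat Genome 230 2.0 arrays, 1 for each age. The cells had grown out of minced Achilles tendon of Sprague-Dawley rats, had been seeded sparsely to form colonies, and were of polyclonal origin. They were cultured in low glucose DMEM with fetal bovine serum and used at passage 2, without any treatment or genetic change at any age. Tissue of at least 2 animals was mixed for each culture, so the 3 arrays do not show how much single animals or cultures vary. The sex of the rats was not given in the sources used here.

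IGFs are small secreted hormones related to insulin. Both ligands act through the IGF1 receptor, a tyrosine kinase that signals through PI3K, Akt and mTOR to growth and division. The IGF2 receptor, also the receptor for mannose-6-phosphate, takes up IGF2 and delivers it to lysosomes. Binding proteins of the IGFBP family hold the ligands outside the cell and either keep them from the receptor or carry them to it. In tendon, IGF1 is known to stimulate cell division and collagen synthesis. Which binding proteins a culture expresses therefore bears on how much ligand is free.

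Because each age is a single array, differences have no check by replicates and are given without p-values. The cultures are called TSPCs-1d, TSPCs-7d and TSPCs-56d, and series of 3 signals follow that order. Signals are linear intensities, comparable between arrays for 1 probe set but not between probe sets. The probe set with the highest mean signal stood for each gene, and a gene was counted as different at a ratio over 2 in either direction. As a guide to probe noise, 1714 genes with 2 probe sets above the median signal were used. In 90% of them the log2 ratios of both probe sets lay within 0.39 of each other for TSPCs-7d vs. TSPCs-1d, within 0.44 for TSPCs-56d vs. TSPCs-7d and within 0.53 for TSPCs-56d vs. TSPCs-1d. This guide does not include variation between cultures. Array medians were between 107 and 114. Signals are called dim under 48.9, which is the lowest quartile bound (25th percentile) over all arrays.

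The largest differences between the ages were in binding proteins, and neither receptor passed 2-fold. *Igfbp2* and *Igfbp5* were highest in TSPCs-1d, *Igfbp6* and the ligand *Igf1* were higher in both older cultures, and *Igfbp3* was highest in TSPCs-56d. These 5 genes passed 2-fold in at least 1 comparison, as did 6.49% of all 14217 genes, and 4 of them are binding proteins. The other 5 did not pass 2-fold between any pair of ages. All 10 genes had a mean signal above the median of 111.1, and all were above the dim level on each array in their brightest probe set.

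**Figure D1:**
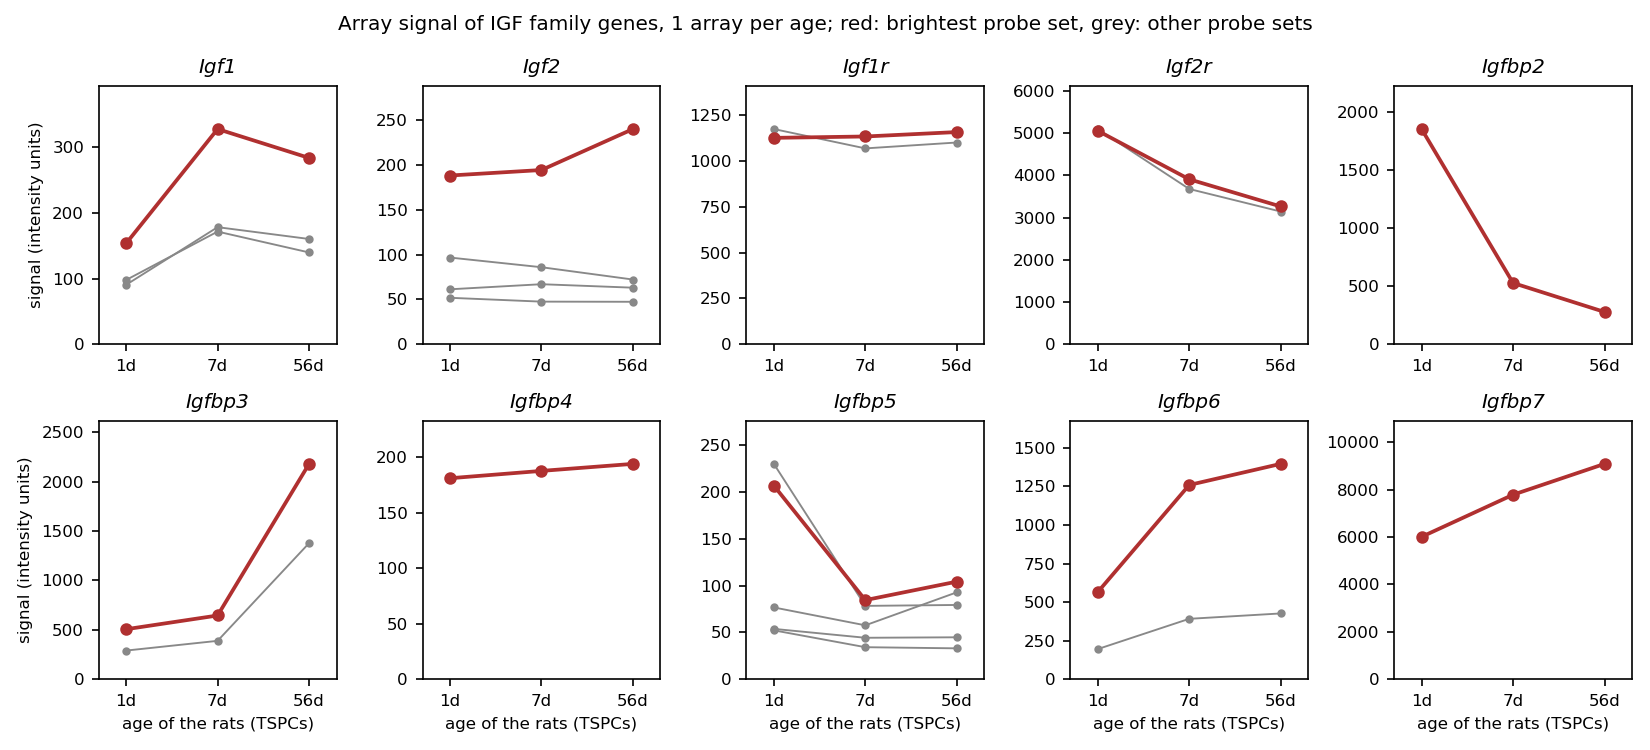
Signal in intensity units, on linear axes that start at 0, for the 10 IGF family genes at 1d, 7d and 56d, 1 array each, with the brightest probe set of each gene in red and the others in grey. *Igfbp2* goes from 1854 to 278 and *Igfbp3* from 505 to 2180 between TSPCs-1d and TSPCs-56d, while the brightest probe set of *Igf1r* stays between 1127 and 1158.

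In TSPCs-7d vs. TSPCs-1d, 2 of the 10 genes were more than 2-fold higher, against 1.87% of all genes, and 2 were more than 2-fold lower, against 1.08%. In TSPCs-56d vs. TSPCs-7d, 1 was higher (1.72% of all genes) and 0 were lower (2.10%). In TSPCs-56d vs. TSPCs-1d, 2 were higher (2.00%) and 1 was lower (1.77%). The median size of the log2 ratio over the family was 0.37, 0.24 and 0.76 in these comparisons. Over all genes it was 0.17, 0.20 and 0.21. The signed medians of the family were close to 0 (0.05, 0.10 and 0.23, beside 0.01, 0.05 and 0.06 over all genes), with members on both sides of 0. These comparisons share arrays and are not independent of each other.

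**Figure D2:**
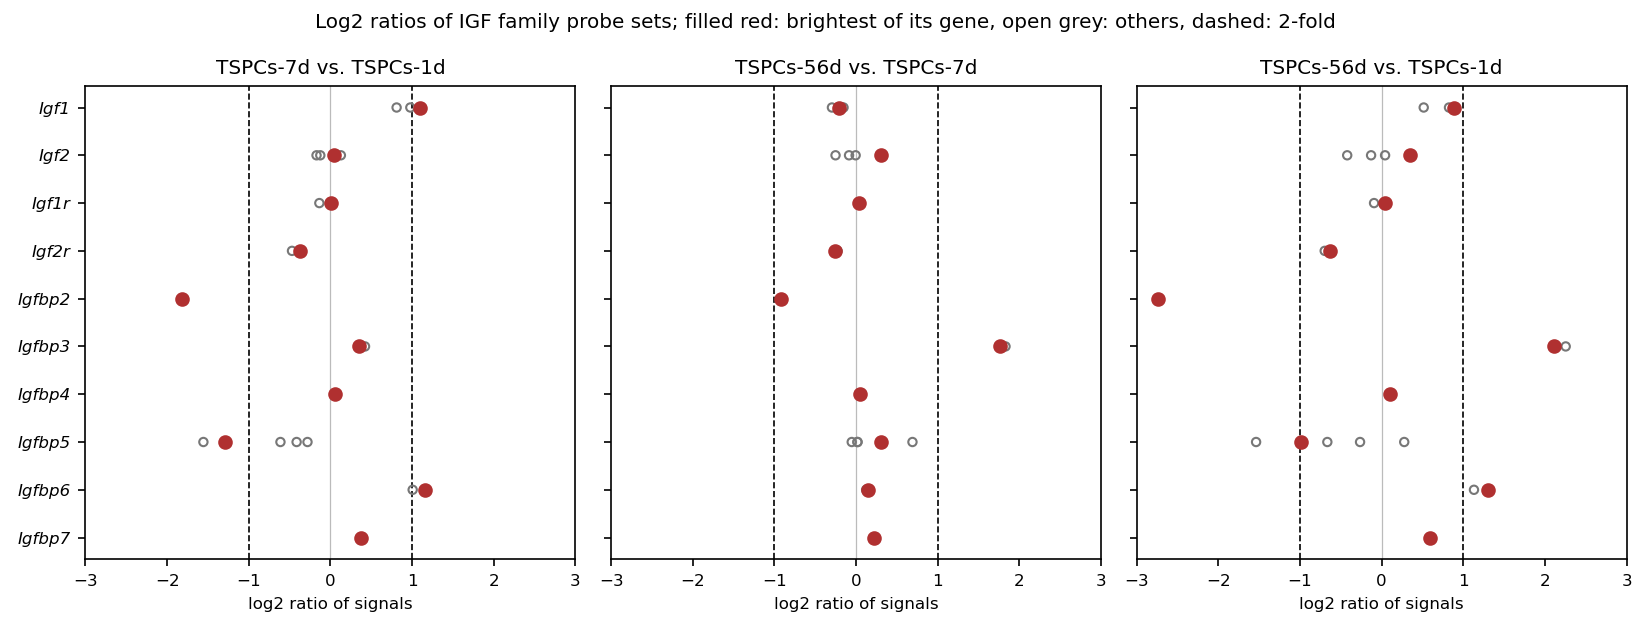
Log2 ratio of signals of each IGF family probe set in 3 comparisons of ages, with the brightest probe set of a gene as a filled red point, the others as open grey points and dashed lines at 2-fold. Between TSPCs-56d and TSPCs-1d, *Igfbp2* lies at -2.74 and *Igfbp3* at 2.11, at opposite ends of the family.

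Of the ligands, *Igf1* was about 2-fold higher in the older cultures than in TSPCs-1d. Its signals were 153 at 1d, 328 at 7d and 284 at 56d. That is 2.13-fold above 1d at 7d and 1.85-fold at 56d, and the older cultures differed by 1.16-fold. The weaker probe sets of *Igf1* had signals of 90.5, 178 and 160, and of 97.8, 171 and 140. All 3 probe sets thus had the order TSPCs-1d, TSPCs-56d, TSPCs-7d, but only the brightest passed 2-fold (log2 ratios of 0.81 to 1.09 for TSPCs-7d vs. TSPCs-1d). The step between TSPCs-7d and TSPCs-56d was within the probe noise.

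*Igf2*, the ligand best known for growth before birth, showed no common direction. Its brightest probe set gave 188, 194 and 240.0. The next had 96.7, 85.9 and 72.2, in the opposite order. The other two stood at 61.3, 67.0 and 63.1, and at 51.8, 47.5 and 47.4, near or under the dim level. The log2 ratios of TSPCs-56d over TSPCs-1d spanned -0.42 to 0.35 over the 4 probe sets. No order of the ages can be read for *Igf2*.

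The receptors passed 2-fold in no comparison. *Igf1r* gave 1127, 1134 and 1158, and 1175, 1069 and 1101 in its second probe set. The ratios of both lay within 1.10-fold for every pair of ages, less than the probe noise. *Igf2r* was highest in TSPCs-1d. It gave 5057, 3908 and 3264, and 5098, 3678 and 3143 in the second probe set, so both were lower at each step. TSPCs-56d was 1.55-fold and 1.62-fold below TSPCs-1d in these probe sets. The log2 ratios of this pair (-0.63 and -0.70) exceeded the probe noise of 0.53, but those of TSPCs-56d vs. TSPCs-7d (-0.26 and -0.23) did not.

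*Igfbp2*, a binding protein abundant in fetal tissues and serum, had the widest range of the family. Its signal was 1854 at 1d, 528 at 7d and 278 at 56d, so each older culture was below the one before. It was 3.51-fold lower at 7d and 6.67-fold lower at 56d than at 1d. A further 1.90-fold separated TSPCs-56d from TSPCs-7d, just short of 2-fold. The array has 1 probe set for *Igfbp2* in the gene table, so no second reading was at hand. Among the 9382 genes above the median signal, its log2 ratio of -2.74 between TSPCs-56d and TSPCs-1d was at rank 17 from the bottom.

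*Igfbp5*, a binding protein that attaches to extracellular matrix and is expressed in bone and muscle, was also highest in TSPCs-1d. The brightest of its 5 probe sets had 207 at 1d, 84.5 at 7d and 104 at 56d, and a second one of nearly the same mean had 230.3, 78.3 and 79.3. The fold below 1d was 2.45 and 2.94 at 7d, and 1.98 and 2.90 at 56d. Both probe sets thus placed TSPCs-1d apart from the older cultures. They disagreed on the 2-fold mark for TSPCs-56d, where the brighter one, which is counted, missed it. The 3 weaker probe sets had signals between 32.9 and 92.8. All 5 were lower in TSPCs-7d than in TSPCs-1d (log2 ratios of -1.56 to -0.28), but 1 of the weaker ones was higher in TSPCs-56d (0.28). In bulk RNA, fewer cells that express a gene and less RNA per cell cannot be told apart, and this holds for every gene described here.

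*Igfbp3*, the main carrier of IGFs in adult serum, was highest in TSPCs-56d. Its signals were 505 at 1d, 644 at 7d and 2180.2 at 56d, and 289, 387 and 1377 in its second probe set. Both probe sets placed the younger cultures close together and TSPCs-56d well above them. TSPCs-56d was 3.38-fold and 3.56-fold above TSPCs-7d, and 4.32-fold and 4.77-fold above TSPCs-1d. The difference of TSPCs-7d from TSPCs-1d (log2 ratios of 0.35 and 0.42) was of the size of the probe noise. Its log2 ratio of 2.11 between TSPCs-56d and TSPCs-1d stood at rank 51 from the top of the 9382 genes.

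*Igfbp6*, a binding protein that prefers IGF2, was higher in both older cultures. Its signals were 564 at 1d, 1259.6 at 7d and 1397 at 56d, and 195, 391 and 426 in its second probe set. Relative to 1d it was 2.23-fold and 2.01-fold higher at 7d, and 2.47-fold and 2.19-fold higher at 56d. TSPCs-7d and TSPCs-56d differed by log2 ratios of 0.15 and 0.12, within the probe noise. Like *Igf1*, *Igfbp6* thus had its main step between TSPCs-1d and TSPCs-7d, whereas that of *Igfbp3* lay between TSPCs-7d and TSPCs-56d.

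The remaining binding proteins did not pass 2-fold. *Igfbp7*, a matrix protein that binds IGFs weakly, gave 6007, 7785 and 9087, 1.51-fold between the first and the last (log2 ratio 0.60). *Igfbp4*, which inhibits IGF action until it is cleaved, had 181, 188 and 194. These are single probe sets. That of *Igfbp4* differed by at most 1.07-fold between any pair of ages.

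*Igfbp2* and *Igfbp5*, both highest in TSPCs-1d, are direct neighbours among the protein-coding genes of rat chromosome 9, on opposite strands and with their ends facing each other. *Igfbp3* has the same arrangement with *Igfbp1* on chromosome 14. *Igfbp1*, a binding protein of liver, had signals of 51.3, 55.8 and 59.7, just above the dim level. Its ratios so near that level are not compared with those of *Igfbp3*. Whether the position of these genes bears on their signals was not tested. The 250 bases before the RefSeq start are shown for the 4 binding proteins past 2-fold, because these genes differed in opposite directions between the same arrays. All are from assembly GRCr8 and written in the direction of the gene. That of *Igfbp2* is chr9:81864561-81864810 (plus strand), that of *Igfbp5* chr9:81914188-81914437 (minus strand), that of *Igfbp3* chr14:86277945-86278194 (minus strand) and that of *Igfbp6* chr7:135154669-135154918 (plus strand). Capitals mark matches to the motifs searched on both strands.
Igfbp2: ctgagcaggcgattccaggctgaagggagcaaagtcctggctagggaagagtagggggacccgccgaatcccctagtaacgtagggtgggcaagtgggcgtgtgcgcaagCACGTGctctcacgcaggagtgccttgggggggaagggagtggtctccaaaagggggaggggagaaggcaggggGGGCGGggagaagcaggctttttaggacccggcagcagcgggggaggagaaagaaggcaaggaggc
Igfbp5: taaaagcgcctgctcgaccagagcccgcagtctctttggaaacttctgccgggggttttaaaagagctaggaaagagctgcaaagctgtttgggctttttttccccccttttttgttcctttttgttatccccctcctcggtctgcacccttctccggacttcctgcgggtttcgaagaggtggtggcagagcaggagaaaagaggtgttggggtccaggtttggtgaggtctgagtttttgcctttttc
Igfbp3: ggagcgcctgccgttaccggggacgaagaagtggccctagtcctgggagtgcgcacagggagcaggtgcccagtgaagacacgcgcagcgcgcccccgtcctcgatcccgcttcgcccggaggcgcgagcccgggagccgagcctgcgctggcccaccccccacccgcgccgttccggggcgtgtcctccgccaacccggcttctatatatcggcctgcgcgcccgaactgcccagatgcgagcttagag
Igfbp6: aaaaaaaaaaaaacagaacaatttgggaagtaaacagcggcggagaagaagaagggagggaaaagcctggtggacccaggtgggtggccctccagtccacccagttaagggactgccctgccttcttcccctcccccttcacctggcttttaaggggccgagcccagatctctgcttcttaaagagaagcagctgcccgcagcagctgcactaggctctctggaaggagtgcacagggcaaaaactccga
The motifs were the TATA box TATAAA, the CCAAT box CCAAT, the GC box GGGCGG, the E box CACGTG and the AP-1 site TGACTCA, none of which overlapped in these windows. *Igfbp2* held 1 GC box, 61 to 66 bases before the start, and 1 E box, 135 to 140 bases before it. The other three windows held 0 matches. Of 33469 promoter windows in the table, 30.5% held a GC box and 5.59% the E box, and 12.9%, 34.0% and 4.05% held the TATA box, the CCAAT box and the AP-1 site. The share of G and C was 64.0% in *Igfbp2*, 51.6% in *Igfbp5*, 71.6% in *Igfbp3* and 54.8% in *Igfbp6*, beside a median of 51.2% over all windows. A match is a run of letters and does not show that a factor binds, and a window with 0 matches only lacks these letters.

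The genes whose pattern over the 3 arrays was most like that of a binding protein were sought among the 9382 genes above the median signal. Likeness was the Euclidean distance of the 3 log2 signals, each gene centred on its mean, so a small value means a near-identical course. With 3 arrays such a match is a description. Nearest to *Igfbp3* were *Aoc3*, an amine oxidase (signals 675, 807 and 2727, distance 0.08), *Cdo1*, which degrades cysteine (91.0, 104 and 369, distance 0.12), and the integrin gene *Itgb3* (173, 201 and 669, distance 0.12). All of these had most of their increase after TSPCs-7d, which follows from their choice by likeness to *Igfbp3*. Nearest to *Igfbp6* were the zinc finger gene *Zfp521* (249, 559 and 575, distance 0.08), *Adamtsl1* (269, 557 and 673, distance 0.10) and the scavenger receptor gene *Colec12* (132, 287 and 357, distance 0.12). Nearest to *Igfbp5* were *Fjx1* (699.8, 301 and 366, distance 0.06), the fatty acid binding protein gene *Fabp3* (4475, 1716 and 2269.5, distance 0.08) and *Tinagl1* (594, 225 and 296, distance 0.08). *Igfbp2* had no match as close, but the distance was not scaled to a gene's range, which in the family was widest for *Igfbp2*. Its nearest were the septin gene *Septin4* (1004, 282 and 189, distance 0.28), the copper ferroxidase gene *Heph* (451, 91.6 and 63.2, distance 0.36) and *Fibin* (859, 347 and 143, distance 0.37).

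**Figure D3:**
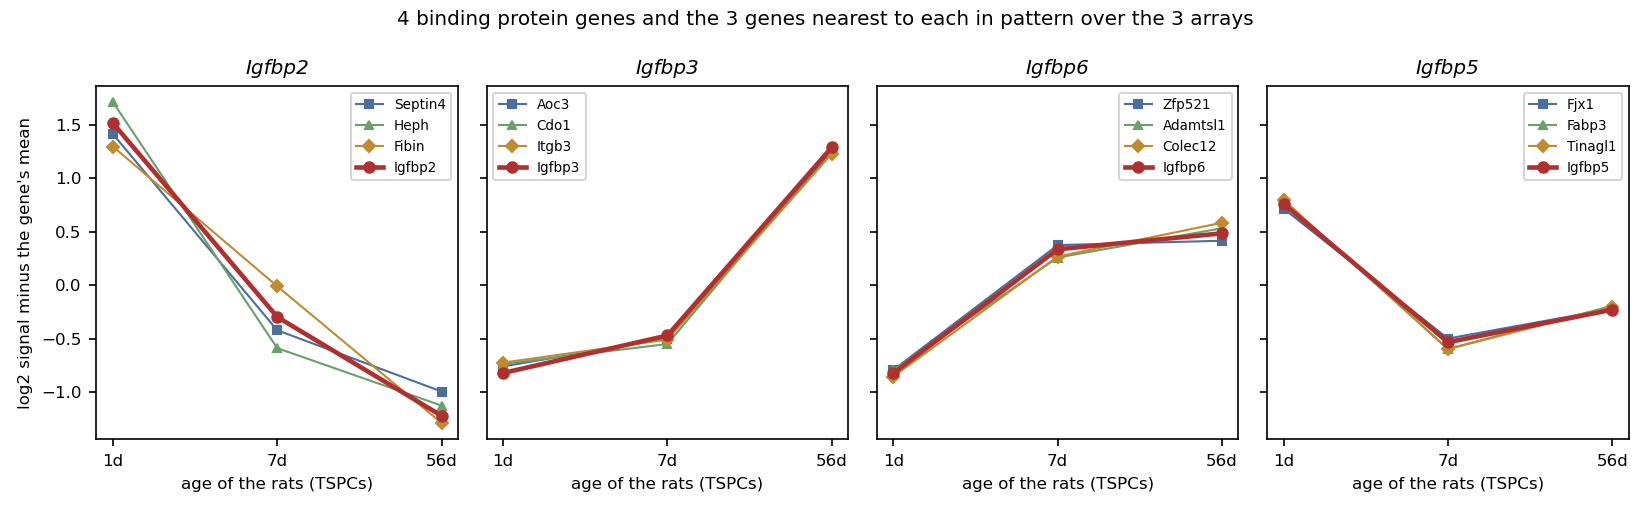
Log2 signal minus the gene's own mean (vertical) at 1d, 7d and 56d for 4 binding protein genes (red) and the 3 genes nearest to each in pattern. The lines nearly coincide for *Igfbp3*, *Igfbp6* and *Igfbp5*, with distances of 0.06 to 0.12, and lie farther apart for *Igfbp2*, at 0.28 to 0.37.

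Outside the 10 genes, those for proteins that bind *Igf2* mRNA were lower in the older cultures. *Igf2bp1*, *Igf2bp2* and *Igf2bp3* encode RNA-binding proteins of fetal tissues. *Igf2bp3* had signals of 519 at 1d, 317 at 7d and 107 at 56d, and *Igf2bp2* had 928, 580.2 and 303. *Igf2bp1* had 117, 72.4 and 36.9, the last of which is dim. TSPCs-56d was thus 4.86-fold, 3.06-fold and at least 2.39-fold below TSPCs-1d, and each of these genes was lower at each step. Their weaker probe sets were less clear. For *Igf2bp3*, 1 followed (231, 175 and 72.5) and 1 did not (233, 225 and 246), and for *Igf2bp2* the second had 222, 190.0 and 160.3. *Plagl1*, an imprinted gene of a zinc finger factor that acts on the *Igf2* and *H19* locus, had 615, 305 and 65.3. In this gene's 1 probe set, TSPCs-56d was 9.42-fold below TSPCs-1d. *H19*, the imprinted RNA beside *Igf2*, did not pass 2-fold (243, 301 and 353).

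The 6 lists beside the family were chosen with earlier results of these data known. Their counts and medians beside those of all genes are therefore descriptions only. Of 9 measured genes of *Igf2* mRNA binding and imprinting, 0 were more than 2-fold higher and 4 were lower in TSPCs-56d vs. TSPCs-1d (2.00% and 1.77% of all genes). Their median log2 ratio was -0.51 beside 0.06 over all genes. In TSPCs-7d vs. TSPCs-1d, 1 was lower (*Plagl1*, 2.02-fold), and in TSPCs-56d vs. TSPCs-7d 2 were lower. Of 28 measured genes of receptor adaptors, PI3K, Akt and mTOR, 0 passed 2-fold in any comparison, beside 6.49% of all genes, a share at which few of 28 would pass. The median size of their log2 ratios was 0.10, 0.13 and 0.14, beside 0.17, 0.20 and 0.21 over all genes. For instance, *Akt1* had signals of 3231, 3213 and 3027, and *Mtor* had 622, 634 and 572. These 2, and *Grb14*, were named after their values were seen. *Grb14*, an adaptor that inhibits insulin receptor signalling, was the farthest apart of the 28, with 1590, 2846 and 2463 (1.79-fold higher at 7d than at 1d). A level of RNA says nothing on the phosphorylation through which these proteins act.

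Of 7 measured proteases of binding proteins and their inhibitors, 1 passed 2-fold in any comparison, beside 6.49% of all genes. *Pappa2*, which cleaves IGFBP3 and IGFBP5, had 203, 173 and 96.7, 2.10-fold lower at 56d than at 1d, but its weaker probe set had 85.5, 84.8 and 103. Of 15 FoxO targets, genes that insulin-like signals are known to repress, 1 was higher and 1 lower in TSPCs-7d vs. TSPCs-1d, 0 passed 2-fold in TSPCs-56d vs. TSPCs-7d, and 2 were higher and 1 lower in TSPCs-56d vs. TSPCs-1d. Over all genes, 1.87% were higher and 1.08% lower in the first of these comparisons, and 2.00% and 1.77% in the last. With so few calls among 15 genes, nothing is read from them about the list. Those higher were *Txnip*, an inhibitor of glucose uptake (394, 796 and 1252), and the superoxide dismutase gene *Sod2* (1011, 1306 and 2156). The one lower, *Trim63*, a ubiquitin ligase of muscle, had 93.2 at 1d and dim signals in both older cultures, so it was at least 1.91-fold lower there, and it was counted on its signals as given. Of 6 genes from the growth hormone receptor to its feedback, only *Jak2* passed 2-fold, in both comparisons of TSPCs-7d (213, 985 and 338). The array has 1 probe set for *Jak2* in the gene table. Of 7 other IGF system genes, 0 passed. Beside the 6.49% of all genes, counts of 0 or 1 in lists this small are not read as results about the lists. *Insr*, the insulin receptor, had 101, 98.6 and 69.9, and *Igfals*, the third subunit of the serum complex with IGFBP3, had 74.5, 65.5 and 93.9.

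**Figure D4:**
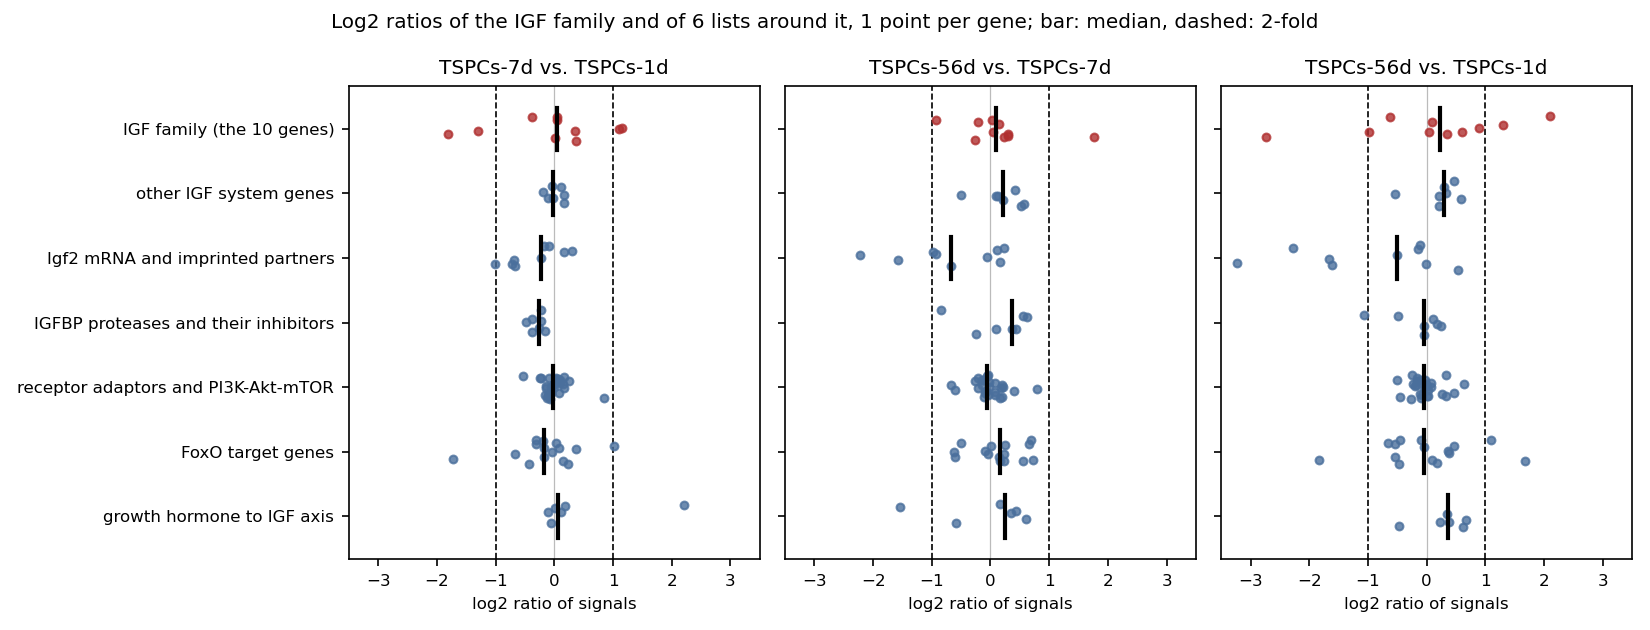
Each point is 1 gene (brightest probe set) at its log2 ratio of signals, for the IGF family and 6 lists around it in 3 comparisons of ages, with a black bar at the median and dashed lines at 2-fold. The 28 genes of receptor adaptors, PI3K, Akt and mTOR lie inside the dashed lines throughout, whereas 4 of 9 genes of *Igf2* mRNA binding and imprinting lie below them in TSPCs-56d vs. TSPCs-1d. The lists were chosen with earlier results of these data known.

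All 9 measured tendon markers had a mean signal above the median of 111.1, but *Thbs4* was under it in TSPCs-1d. *Scx* lay between 2255 and 2578 and *Col1a2* between 18751 and 19315. Of 9 measured tendon markers, 0 were dim on any array, and their summed signal was 56193 to 60741, most of it from *Col1a1*, *Col1a2* and *Col3a1*. *Col1a2* had the highest signal of each array, and whether a difference could show at that level was not tested. Sums like this follow the brightest probe sets, so they are compared between arrays and not between cell types. The weaker tendon markers did differ. In TSPCs-7d vs. TSPCs-1d 3 were more than 2-fold higher and 0 lower, beside 1.87% and 1.08% of all genes. In TSPCs-56d vs. TSPCs-7d 0 were higher and 2 lower (1.72% and 2.10%). In TSPCs-56d vs. TSPCs-1d 1 was higher and 1 lower (2.00% and 1.77%). *Thbs4* had 76.5, 339.6 and 348, and *Fmod* had 271, 774 and 408. *Col14a1* had 765, 3702 and 522, highest at 7d, and *Tnmd* had 543, 351 and 158, lower at each step. Endothelial markers were low, with a sum over 4 genes of 212 to 230.4 and *Pecam1* dim throughout. The 6 markers of macrophages and leukocytes had a sum of 587 to 708 and were mixed. *Ptprc* and *Itgam* were dim throughout. In contrast, *Aif1* (209, 188 and 267), *Cd14* (162, 157 and 155) and *Cd68* (122, 109 and 143) had mean signals above the median. Of 7 skeletal muscle markers, the sum was 2202, 1303 and 5820.3, most of it from *Acta1* (1772, 855 and 5327), and *Myod1* was dim throughout. The sum of 6 pericyte and smooth muscle markers was 19849, 14942 and 22178, but its members differed in direction. *Mcam* had 2182, 930.0 and 927, 2.35-fold below 1d in both older cultures. *Myh11* had 2186, 1671 and 5067, highest at 56d. Its second probe set was also highest there, but by log2 ratios of only 0.39 over TSPCs-7d and 0.86 over TSPCs-1d, under 2-fold. *Acta2* and *Cnn1* were 1.03-fold and 1.11-fold higher at 56d than at 1d. *Cspg4* (793, 659 and 622) and *Rgs5* (58.6, then dim) were highest at 1d. The sum of 2 Schwann cell markers was 579.9, 593 and 1065. Of 5 cartilage markers, the sum was 9200.4, 8854.0 and 3218, mostly *Acan*, with *Col9a1* dim throughout. *Acan* (8588, 8224 and 2874) and *Hapln1* (400, 428 and 120) were lowest in TSPCs-56d. In contrast, *Col2a1* (66.9, 61.6 and 72.35) and *Matn1* (118, 114 and 124) were highest there by a small margin. The sum of 4 adipocyte markers was 291, 230.4 and 195, with *Pparg* (119.5, 117 and 60.3) and *Fabp4* (70.6, then dim) highest at 1d and *Adipoq* (52.4, dim and 59.4) and *Plin1* (dim, dim and 58.1) highest at 56d. The part of any of these cells in the results above was not tested.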

How the data were processed

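Total RNA of cultured TSPCs was hybridized to 3 arrays. The authors scanned them and deposited linear signal intensities. Their methods name 2 summary algorithms, MAS5 and RMA, but the processing notes that the submitters gave name only the former. Which of them gave the values is not stated, and how the choice affects them was not tested. They were used as deposited. No depth applies to arrays, and their number limits the precision.

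Columns were assigned to ages by sample label. Of 31042 probe sets, 20826 have a single gene symbol in the platform's table. Gene order and the promoter windows came from RefSeq (GRCr8), in which all 10 genes were found. The ratio of signals, its log2 value and counts past 2-fold, the cutoff in the methods, were computed for 3 pairs of ages, on all genes, with no test. The genes and 6 lists beside them, 8 marker lists and the rule below were chosen with earlier results of these data known. From the lists, genes past 2-fold with a mean signal above the median were named, at most 6 per list, and *Insr*, *Igf2bp1*, *Igf2bp2*, *Igf2bp3*, *H19* and *Igfals* in any case. *Trim63*, the markers and *Igfbp1* fall outside this rule. The alternatives were 3 other scalings, 2 floors, a pseudocount of 32, a filter on dim genes, 2 other choices of probe set and cutoffs of 1.5 and 3. The calculation was tested on simulated data. Python 3.11.15, numpy 2.4.6, pandas 2.3.3, statsmodels 0.14.6 and matplotlib 3.10.9 were used.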

Additional observations from a re-analysis of the deposited data

How the results depend on the processing

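The number of IGF family genes past 2-fold stayed within 1.5 times its value under most alternatives. The exceptions were the cutoffs and 1 scaling. In TSPCs-7d vs. TSPCs-1d, 1 of the 4 genes remained at a 3-fold cutoff, *Igfbp2*. In TSPCs-56d vs. TSPCs-7d the count was 1, and it was 2 at a 1.5-fold cutoff and 2 when all arrays were scaled to 1 median, both times with *Igfbp2* beside *Igfbp3*. In TSPCs-56d vs. TSPCs-1d the count was 3, and it was 7 at a 1.5-fold cutoff. Scaling to 1 median moved log2 ratios by at most 0.10. The floor at the dim level and the filter on dim genes could not change any ratio or count. The brightest probe set of each family gene had no dim signal and a mean signal above the median. The choices of probe set could not change *Igfbp2*, *Igfbp4* or *Igfbp7*, which have 1 probe set each. Of 270 single ratios under 9 alternatives, these fixed ones included, 0 moved by more than the probe noise and 8 crossed 2-fold. *Igf1* in TSPCs-7d vs. TSPCs-1d fell under it with a pseudocount (0.96), with the mean over its probe sets (0.99) and without probe sets shared between transcripts (0.98). *Igfbp5* in the same comparison fell under it when signals below the median were raised to it (-0.91), and in TSPCs-56d vs. TSPCs-1d it passed under each of the 3 scalings (-1.09 to -1.08). The sign changed in 10 ratios, all of *Igf2*, *Igf1r* and *Igfbp4* and none of them past 2-fold. No paired analysis was possible because each age has 1 array, and for the same reason no array could be left out.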
